A study of Oryctolagus cuniculus with 4 samples.

Results

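The comparison was between the whole of a section of rabbit supraspinatus muscle collected 16 weeks after tenotomy and the whole of a section of healthy supraspinatus muscle, which by their labels came from the opposite sides of the same animal (14L and 14R). All spots under tissue of both sections were taken, 1726 in the 16-week section and 2440 in the stored healthy section, together 4166 of the 6970 spots of the 4 sections measured. Both muscles had been snap-frozen and kept frozen for 6 years before they were sectioned, so storage was shared and the surgery was not. The animals were skeletally mature female New Zealand White rabbits with an age of 6 months, and the healthy muscle 14R was the side opposite to an operated shoulder and not that of an untouched animal. The other 2 sections, used here only for reference, were a 2-week section (6L, 2 weeks after tenotomy, stored for 6 years) and a fresh healthy section (211R, not stored for years), each from a different animal. There was 1 section per side, so tenotomy, side and section cannot be told apart, and the ratios below carry 95% intervals for counting error only, with no p-value.

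The supraspinatus is a muscle of the rotator cuff that lifts and steadies the arm. Tenotomy, the cutting of its tendon, unloads the muscle and is used to model a rotator cuff tear. Unloaded muscle is known to lose fiber mass, and torn rotator cuff muscle is known for the spread of fat and connective tissue between the fibers. Muscle fibers are classed as slow or fast by the myosin they use, and they draw their energy from oxidative phosphorylation in mitochondria and from glycogen through glycolysis.

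RNA was counted by Visium 3′ spatial transcriptomics. Spots printed on a slide capture polyadenylated RNA from the tissue above, and the captured molecules are counted by unique molecular identifiers (UMIs). In such sums fewer cells of a type and less RNA per cell cannot be told apart. The counts summed to 4743522 UMIs in the 16-week section and 12536450 in the stored healthy section. Mitochondrially encoded genes took 34.6% of the UMIs of the 16-week section and 49.2% of those of the stored healthy section, so the other genes, called nuclear genes here, were set against the sum of nuclear UMIs, which was 3102285 and 6366290. A level is a number of UMIs per 10000 nuclear UMIs, and a log2 ratio is the 16-week over the stored healthy level after addition of 0.5 UMI. Levels follow transcript abundance only within a gene, since 3′ capture and gene models differ between genes.

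The sections differed in their content of muscle RNA. Genes of the contractile apparatus (49 fast fiber, slow fiber, sarcomere and Z-disc genes) took a median of 22.0% of the nuclear UMIs of a spot in the stored healthy section and 13.6% in the 16-week section, among spots with at least 500 UMIs. The 10th and 90th percentiles over spots were 4.16% and 22.6% in the 16-week section, against 17.6% and 26.2% in the stored healthy one. Spots with a share below 10% numbered 559 of 1592 (35.1%) in the 16-week section and 20 of 2380 (0.840%) in the stored healthy section. The stored healthy section was thus narrow and high, and the 16-week section held spots of every share from near 0 to the healthy range. In the fresh healthy section, the median was 21.9%, close to that of the stored healthy section. Spots above the 10th percentile of the stored healthy section, 17.6%, are called muscle-rich below. They made up 534 of 1592 spots (33.5%, interval 31.2 to 35.9) at 16 weeks. In the stored healthy section they were 2142 of 2380, a share that the cut sets. Within muscle-rich spots the median share was 20.8% and 22.4%, so ratios among these spots compare areas of nearly equal contractile gene content.

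**Figure D1:**
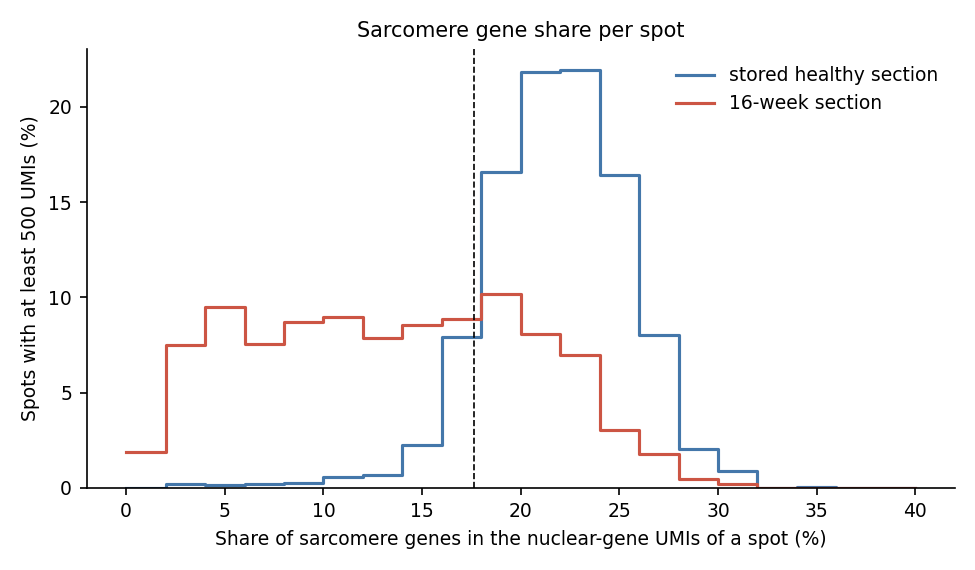
Distribution of the share of contractile genes among the nuclear UMIs of a spot (x axis, %), as the percentage of spots with at least 500 UMIs in each section (y axis), in steps of 2 percentage points. The dashed line is the cut of 17.6% for muscle-rich spots, above which 33.5% of the 16-week spots lay. The 16-week section spreads over low shares that hardly occur in the stored healthy section.

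Of 2532 nuclear genes with at least 200 UMIs over both sections, 524 (20.7%) were at least 2-fold higher and 80 (3.16%) at least 2-fold lower in the 16-week section, and the median gene had a log2 ratio of 0.41. This split depended on what the genes were set against. It was 949 higher (37.5%) against 43 lower (1.7%) when the UMIs of all genes were the denominator, 376 against 110 with the 10 most counted genes left out of it, and 229 against 208 when levels were scaled to the median gene. The all-UMI denominator moved the median gene by 0.36 to a log2 ratio of 0.78. A gene with a log2 ratio between -0.36 and 0 is therefore higher on the all-UMI scale, a gene between 0 and 0.41 is lower than the median gene, and the values below are to be read against that median. In muscle-rich spots, 158 of 2011 genes (7.86%) were at least 2-fold higher and 67 (3.33%) at least 2-fold lower, with a median log2 ratio of 0.18. For reference, the stored and the fresh healthy section, from 2 animals, differed by at least 2-fold in 164 (6.77%) and 160 (6.61%) of 2422 genes, higher and lower in the stored section. Against the fresh healthy section, 598 of 2244 genes (26.6%) were at least 2-fold higher at 16 weeks and 203 (9.05%) at least 2-fold lower.

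**Figure D2:**
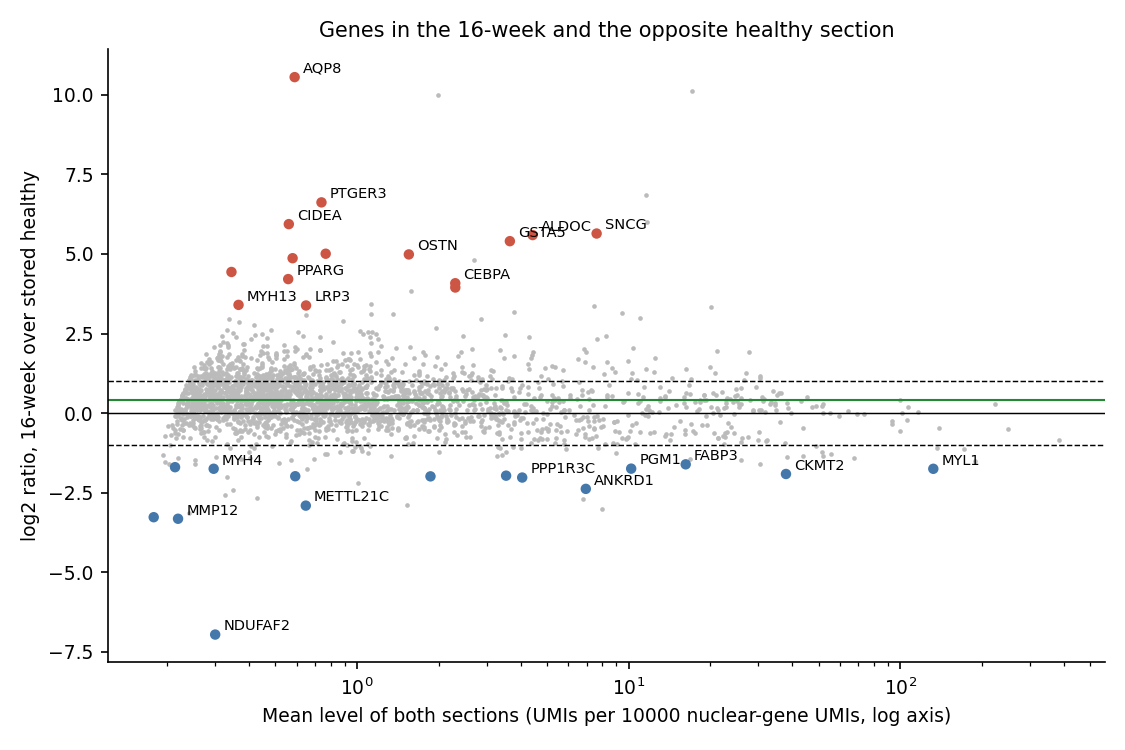
Log2 ratio of the 16-week over the stored healthy section (y axis) against the mean level of both sections (x axis, UMIs per 10000 nuclear UMIs, log axis) for 2532 genes with at least 200 UMIs. Red and blue points are the 15 named genes with the highest and the 15 with the lowest ratios, dashed lines mark 2-fold, and the green line is the median gene at 0.41, so the cloud lies above 0. Grey points without a label near 10 are features with no gene name.

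Fast fiber genes were lower at 16 weeks, and no slow fiber gene passed 2-fold. Of 8 measured fast fiber genes (members with at least 50 UMIs), 0 were at least 2-fold higher and 5 at least 2-fold lower, where over all 4529 genes of that depth 26.6% were called higher and 3.07% lower. Class counts over all spots given below are to be read against these 26.6% and 3.07%. Class counts in muscle-rich spots are to be read against 12% higher and 4.04% lower. These were the shares among 3861 genes with at least 50 UMIs in those spots, whose median log2 ratio was 0.25. The median log2 ratio of the fast fiber genes was -1.22, against 0.53 for the 4529 genes. In muscle-rich spots it was -0.79, against 0.30, with 0 of 8 genes at least 2-fold higher and 3 lower. MYL1 (ENSOCUG00000014182), the fast alkali light chain, stood at 60.7 per 10000 in the 16-week and 204 in the stored healthy section, a log2 ratio of -1.75 (interval -1.77 to -1.73). The fast calcium pump ATP2A1 and the calsequestrin of fast fibers, CASQ1, had log2 ratios of -1.35 and -1.46. The fast tropomyosin gene TPM1 was at -1.08 and the fast alpha-actinin ACTN3 at -0.96. MYH1, the type 2x myosin heavy chain, was less low, at -0.48, and at -0.11 on the all-UMI scale. In muscle-rich spots MYH1 was at -0.04 and the kinase gene MYLK2 at -0.09, against -0.55 for MYLK2 over all spots. MYH4, the type 2b myosin heavy chain, was rare in both sections, with 42 and 292 UMIs. The summed share of the fast list was 3.19% at 16 weeks, 6.84% in the stored healthy section, 11.8% in fresh healthy muscle and 16.5% at 2 weeks. The 16-week value was thus the lowest of the 4, and the healthy sections themselves differed.

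None of 11 slow fiber genes reached 2-fold in either direction (0 higher and 0 lower), and their median log2 ratio was -0.02, which is below the median of all genes and turns to 0.35 on the all-UMI scale. MYH7 (ENSOCUG00000011037), the slow myosin heavy chain, stood at 244 per 10000 at 16 weeks and 202 in the stored healthy section (log2 ratio 0.27, and 0.73 in muscle-rich spots). On the scale of the median gene MYH7 was lower at 16 weeks. MYL2, the slow regulatory light chain, was lower, at 274 and 495 (log2 ratio -0.85), while the slow troponin TNNI1 (-0.03) and the light chain MYL3 (0.02) were level. Among the UMIs of 6 myosin heavy chain genes, MYH7 made up 67.1% at 16 weeks and 55.0% in the stored healthy section, and MYH1, the type 2x chain, 32.0% and 44.1%. In muscle-rich spots these shares were 67.5% and 54.9% for MYH7, near those over all spots. Muscle-rich spots are part of all spots, and these heavy chain shares were not compared in the fiber-poor spots on their own. The fresh healthy section had 14.4% MYH7 and 85.4% MYH1. The gap between the healthy sections was therefore wider than that between the sides of animal 14.

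Proteins of the sarcomere and Z-disc that serve both fiber types had a median log2 ratio of -0.22 over 26 measured genes, 2 of them at least 2-fold higher and 0 lower. This median was 0.14 with all UMIs as denominator. The alpha-actinin ACTN2 was lower (18.0 and 34.0 per 10000, log2 ratio -0.91), and nebulin, NEB, was at 0.28. The members past 2-fold were OBSL1, an obscurin-like protein (1.14), and MYOM3, a myomesin of the M-band (79 and 42 UMIs, log2 ratio 1.94 and 2.65 in muscle-rich spots). Since these lists chose the muscle-rich spots, their values there describe the choice in part.

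Among genes of the response to mechanical load, ANKRD1 (ENSOCUG00000006901), a titin-binding ankyrin repeat protein, stood apart. Of 11 measured members 0 were at least 2-fold higher and 1, ANKRD1, lower, with a median log2 ratio of -0.21, or 0.16 on the all-UMI scale. ANKRD1 stood at 2.24 per 10000 in the 16-week section and 11.7 in the stored healthy section, while the fresh healthy section had 44.1 and the 2-week section 10.6. Its log2 ratio was -2.38 (interval -2.49 to -2.27), and -2.21 in muscle-rich spots. The remaining 16-week UMIs were unevenly placed, with 71 of 696 in 1 spot and 78.2% in the 10% of spots that held the most. With each spot thinned to 500 nuclear UMIs, ANKRD1 was found in 7.4% of 1500 spots at 16 weeks and in 44.9% of 2349 spots of the stored healthy section. The related gene ANKRD2 was at -0.64 and the small heat shock protein genes CRYAB and HSPB1 at -0.22 and 0.10.

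Embryonic forms of contractile proteins were higher at 16 weeks, with the exception of neonatal myosin. Of 5 measured genes of this list 3 were at least 2-fold higher and 1 lower, with a median log2 ratio of 1.45, and 1.65 in muscle-rich spots. The list summed to 0.334% of nuclear UMIs at 16 weeks and 0.128% for stored healthy muscle. Fresh healthy muscle had 0.0152% and the 2-week section 0.0915%. For this list the stored over the fresh healthy section gave a median log2 ratio of 3.19. The healthy sections thus differed more than the sides of animal 14. Cardiac actin, ACTC1, the main actin of fetal muscle, stood at 29.2 per 10000 against 10.7 in the stored healthy section. MYL4, the embryonic light chain, had 486 and 134 UMIs (log2 ratio 2.89), and MYBPH, myosin-binding protein H, 544 and 187 (2.58). MYH8, the neonatal myosin heavy chain, had 208 and 878 UMIs, a log2 ratio of -1.04. Against the fresh healthy section, with 0.233 per 10000, the MYH8 ratio turned to 1.52, so its direction depended on which healthy section was used. The extraocular myosin MYH13 had 208 and 40 UMIs, but 76 of the 208 lay in 1 spot, and without each section's highest spot its log2 ratio was 2.82 in place of 3.40. All 6 listed satellite cell genes with a feature stayed below 50 UMIs, with 10 UMIs together at 16 weeks and 42 in the stored healthy section.

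Signals and ligases known from muscle atrophy were mixed as a list but high in a few members. Of 16 measured genes, 5 were at least 2-fold higher, near the 26.6% of all genes, and 1 lower. The median log2 ratio of 0.39 was below that of all genes, but in muscle-rich spots it was 0.42 against 0.30. In those spots 4 of 15 were higher and 0 lower, where 12% and 4.04% of all genes were. Against the fresh healthy section the median of the list was -0.04, where that of all genes was 0.49. The ubiquitin ligases TRIM63 (MuRF1) and FBXO32 (atrogin-1) and their transcription factor FOXO3 had log2 ratios of 2.04, 1.72 and 1.97. They rested on low counts, 93 and 46 UMIs for TRIM63, 145 and 90 for FBXO32, and 52 and 27 for FOXO3. In muscle-rich spots TRIM63 was at 2.41 and FBXO32 at 2.15. The other members past 2-fold were growth factor genes and not ligases, IGF1 (581 and 202 UMIs, 2.56) and its binding protein IGFBP5 (1.05). The ligase component ASB15 was the lower one, at -1.18. Follistatin, FST, an inhibitor of myostatin, had 120 and 17 UMIs, a log2 ratio of 3.82 (interval 3.12 to 4.68) and 3.69 in muscle-rich spots.

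OSTN (ENSOCUG00000007035), the secreted muscle peptide musclin, was among the highest genes and was at least as high in muscle-rich spots. It had 934 UMIs at 16 weeks and 60 in the stored healthy section, or 3.01 and 0.0942 per 10000. Its log2 ratio was 4.99 (interval 4.62 to 5.40) over all spots and 5.63 in muscle-rich spots. OSTN was found in 11% of thinned spots at 16 weeks (interval 9.46 to 12.7) and 0.511% in the stored healthy section, and its level was 0.119 in the 2-week and 0.0197 in the fresh healthy section. PDK4, the kinase that closes pyruvate entry into mitochondria, was likewise as high in muscle-rich spots, with 235 and 86 UMIs and log2 ratios of 2.48 over all spots and 2.73 in muscle-rich spots.

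Transcripts for oxidative phosphorylation were lower in the 16-week section in both genomes. All 26 measured nuclear subunits of complexes I to V had log2 ratios below 0, from -1.59 for ATP5MC1, the membrane ring subunit of ATP synthase, to -0.19 for NDUFS4 of complex I. Their median was -0.74, with 0 members at least 2-fold higher and 2 lower (ATP5MC1 and the cytochrome oxidase subunit COX5B, -1.35), and -0.47 in muscle-rich spots. On the all-UMI scale, used for the mitochondrially encoded genes below, the median was -0.37. NDUFS4 (0.17), NDUFB11 (0.12) and NDUFS5 (0.00076) were not below 0 on that scale. The summed share of the 26 genes was 2.79% of nuclear UMIs at 16 weeks and 4.84% in the stored healthy section, with 4.20% in fresh healthy muscle and 3.53% at 2 weeks. This was again the lowest share of the 4 sections at 16 weeks.

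Mitochondrially encoded genes took 34.6% of all UMIs at 16 weeks and 49.2% in the stored healthy section, a difference of -14.6 percentage points. The fresh healthy section had 49.3% and the 2-week section 33.8%, so both healthy sections lay near each other. In muscle-rich spots it was 41.2% and 49.5%, a smaller gap of -8.23 points. All 13 named mitochondrial genes had a lower share of all UMIs at 16 weeks by their point estimates, with log2 ratios from -1.11 for ND4L to -0.02 for ND6 and a median of -0.65. The interval of ND6, which had 189 and 506 UMIs, ran from -0.27 to 0.23 and included 0. COX1, the most counted, took 7.17% and 9.76% of all UMIs. These 13 genes held 78.3% and 83.7% of the mitochondrial UMIs, and the rest fell on 24 features without a name.

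Genes of the citric acid cycle and pyruvate entry had a median closer to 0. The 10 measured genes had a median log2 ratio of -0.53 with 0 past 2-fold, and the cytosolic and mitochondrial malate dehydrogenases MDH1 and MDH2 were at -0.84 and -0.75. CKMT2 (ENSOCUG00000011211), the creatine kinase of muscle mitochondria, which passes ATP energy to creatine, stood at 15.9 and 59.9 per 10000, a log2 ratio of -1.91 (interval -1.95 to -1.87). AMPD1, the AMP deaminase of muscle, was at -1.98, while myoglobin, MB (-0.10), and the glucose transporter SLC2A4 (0.00) were near level, and the creatine and purine list counted 2 of 5 members at least 2-fold lower and 0 higher, with a median of -0.10. Fatty acid genes went both ways, with 3 of 10 at least 2-fold higher, near the 26.6% of all genes, and 1 lower, and a median of 0.13. FABP3, the fatty acid carrier of muscle, was at -1.61, and PDK4, the transporter CD36 (1.47) and HADH (1.17, interval 0.86 to 1.48) were the higher ones. In muscle-rich spots 1 of 10 was higher and 1 lower, and CD36 and HADH were at 0.35 and 0.64. Against the fresh healthy section, FABP3 was at -0.36.

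Glycolytic genes went both ways, and 3 of 8 glycogen genes were at least 2-fold lower. Of 9 glycolysis genes 3 were at least 2-fold higher and 3 lower, with a median of -0.35 that becomes 0.01 with all UMIs as denominator. The lower ones were the muscle isoforms ALDOA (108 and 235 per 10000, log2 ratio -1.13), ENO3 (37.0 and 97.5, -1.40) and PGAM2 (32.6 and 78.9, -1.28). The highest was ALDOC, the aldolase isoform known from brain (2694 and 114 UMIs, 5.59). The widespread hexokinase HK1 (1.37, from 29 and 23 UMIs) and the muscle hexokinase HK2 (296 and 303 UMIs) were the other higher ones. Their intervals, 0.53 to 2.23 and 0.77 to 1.24, include values under 2-fold. In muscle-rich spots 1 of 8 glycolysis genes was at least 2-fold higher and 0 lower, with a median of -0.36. ALDOA, ENO3 and PGAM2 were at -0.74, -0.94 and -0.87 there. The summed share of the list was 2.27% and 4.59%, with 6.35% in the 2-week and 6.53% in the fresh healthy section. In the glycogen list 1 of 8 genes was at least 2-fold higher and 3 lower, with a median of -0.63, and in muscle-rich spots 0 were higher and 2 lower, with a median of -0.13. The gene PGM1, which links glucose phosphates to glycogen, was at -1.74 and PPP1R3C, a glycogen-targeting subunit of protein phosphatase, at -2.02, and in muscle-rich spots at -1.27 and -1.50. PHKA1, the muscle subunit of phosphorylase kinase, was lower (-1.09), whereas the liver form PHKA2 was higher (1.77).

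**Figure D3:**
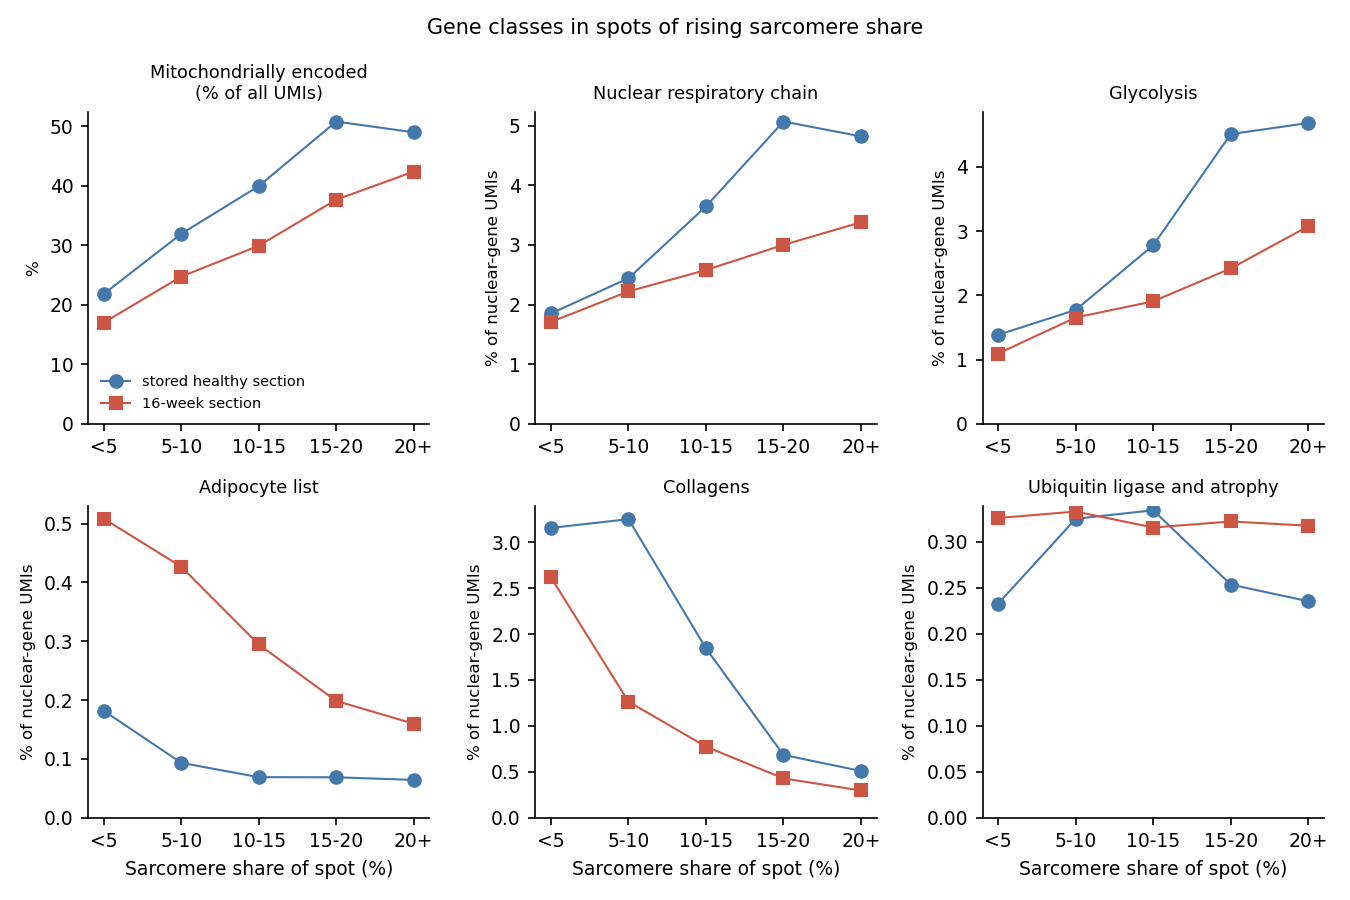
Share of 6 gene groups in spots grouped by their contractile gene share (x axis, %), in the stored healthy (blue circles) and the 16-week section (red squares). The y axes give percentages of all UMIs for the mitochondrially encoded genes and of nuclear UMIs for the other groups, and each point sums the spots of its group. The summed adipocyte list, most of whose UMIs were of LPL, was higher at 16 weeks in each of the 5 groups of spots. Collagens were lower in each, and the stored healthy points below 10% rest on 20 spots.

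Genes of adipocytes were among the highest at 16 weeks. Of 15 adipocyte features 7 were measured, with at least 50 UMIs over both sections, and the counts leave out the rest. Of the 7 measured genes 6 were at least 2-fold higher and 0 lower, with a median log2 ratio of 2.73. Of 6 measured in muscle-rich spots 4 were at least 2-fold higher there, with a median of 2.13. Over all 3861 genes measured in these spots 12% were called higher and 4.04% lower. The 2 transcription factors that drive fat cell formation, PPARG (329 and 36 UMIs, log2 ratio 4.21) and CEBPA (1348 and 163, 4.08), were higher. So was CIDEA (ENSOCUG00000011380), a protein of lipid droplets, with 343 UMIs at 16 weeks and 11 in the stored healthy section (5.94, interval 5.14 to 7.02). Adiponectin, ADIPOQ, gave few UMIs (43 and 13, 2.73), and lipoprotein lipase, LPL, gave many (19.2 and 5.80 per 10000, 1.73). PPARG, CIDEA and ADIPOQ reached the minimum of 50 UMIs only with the UMIs of the 16-week section. The list took 0.269% of nuclear UMIs at 16 weeks, 0.0662% in the stored healthy section, 0.0747% in fresh healthy muscle and 0.108% at 2 weeks. Within the 16-week section, its share ran from 0.508% in spots with less than 5% contractile genes to 0.160% in those above 20%, where the stored healthy section had 0.0645%. LPL alone gave 5954 of the 8348 UMIs of the list at 16 weeks and 3695 of 4212 in the stored healthy section. These summed shares therefore mostly follow LPL.

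Several of the 15 genes with the highest ratios were not on the adipocyte list. SNCG (ENSOCUG00000013292), gamma-synuclein, known from neurons and fat cells, had 4636 UMIs against 190, or 14.9 and 0.298 per 10000, a log2 ratio of 5.64 (interval 5.44 to 5.86). It was found in 52.4% of thinned spots at 16 weeks (interval 49.8 to 55.0) and in 0.937% in the stored healthy section. ALDOC was found in 37.1% and 0.766% of thinned spots. PTGER3, a prostaglandin E2 receptor, had 455 and 9 UMIs. AQP8 (ENSOCUG00000001864), a water channel, had 366 UMIs at 16 weeks and 0 in the stored healthy section, at least 250.4-fold higher when 3 UMIs are taken as the limit of a section with 0. The fresh healthy section gave 7 UMIs and the 2-week section 35. The glutathione transferases GSTA5 and MGST1 (5.40 and 3.95), the serine synthesis enzyme PHGDH (5.01), the fatty acid carrier FABP7 (4.87) and PCK2, the mitochondrial form of phosphoenolpyruvate carboxykinase (4.43), completed this group with LRP3 (3.38). In muscle-rich spots the log2 ratios of this group without AQP8 lay between 2.30 and 5.54.

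**Figure D4:**
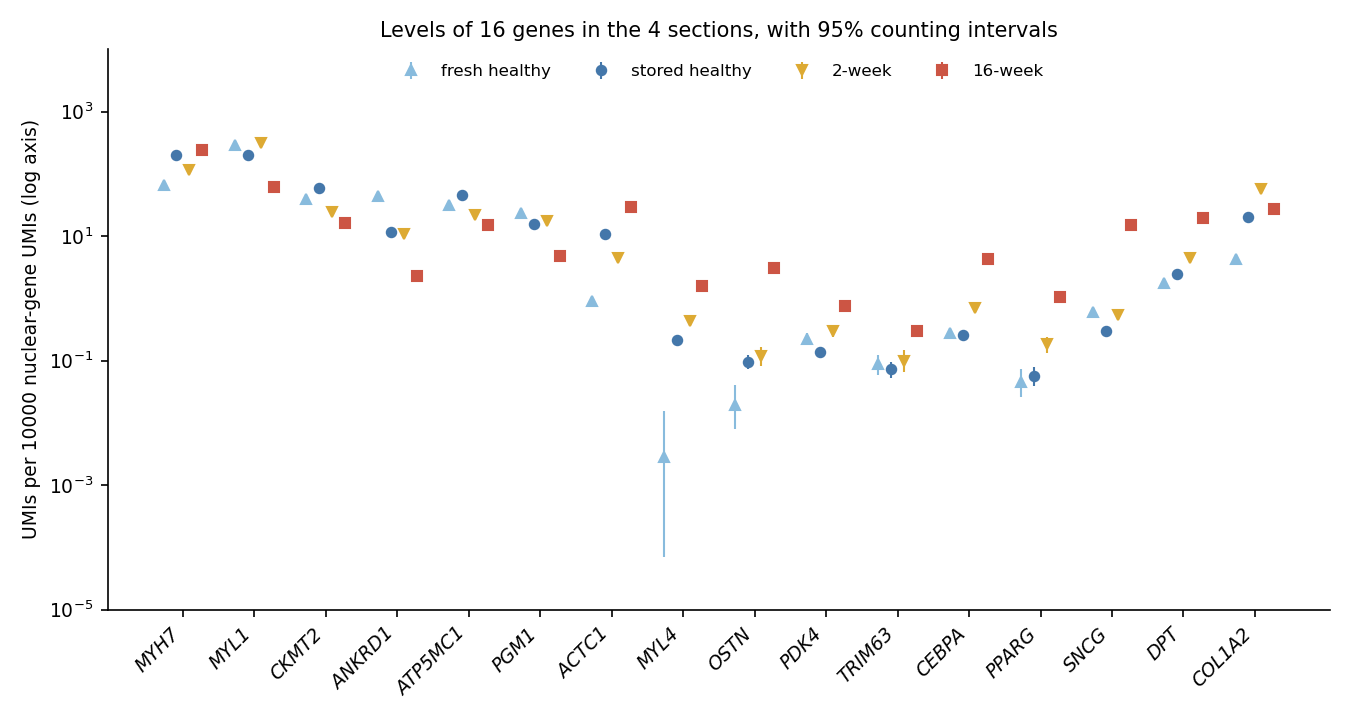
Levels of 16 genes in the 4 sections (y axis, UMIs per 10000 nuclear UMIs, log axis), with exact Poisson 95% intervals that are often smaller than the symbols. The 16-week section (squares) lies lowest of the 4 for MYL1, CKMT2, ANKRD1, ATP5MC1 and PGM1, and highest for the genes from ACTC1 to DPT as well as MYH7, while COL1A2 was highest at 2 weeks.

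Collagen genes differed between all spots and muscle-rich spots. Over all spots 4 of 11 measured collagen genes were at least 2-fold higher and 0 lower, with a median log2 ratio of 0.76. The fibrillar chains with most UMIs, COL1A2 and COL3A1, stood at 27.1 and 36.3 per 10000 at 16 weeks against 19.9 and 29.7 (log2 ratios 0.45 and 0.29, of which that of COL3A1 falls below the median gene). In muscle-rich spots 0 of 10 were higher and 4 lower, with a median of -0.81, where 12% of all genes were higher and 4.04% lower. COL1A2 was then at -1.13, COL3A1 at -0.61, and COL11A1 turned from 1.53 to -1.58. The summed collagen share was 0.796% and 0.592%, but since spots held fewer UMIs at 16 weeks this was 14.3 and 15.4 UMIs per spot. The fresh healthy section had 0.171% and the 2-week section 1.69%.

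Other matrix genes were higher in part. Of 20 measured proteoglycan, glycoprotein and fibroblast genes 12 were at least 2-fold higher and 1 lower, with a median of 1.23, and in muscle-rich spots 6 of 18 were higher and 4 lower, with a median of 0.23. DPT, dermatopontin, which binds decorin, had 6061 and 1560 UMIs, a log2 ratio of 2.99 (interval 2.91 to 3.08) and 2.19 in muscle-rich spots. Osteoglycin, OGN (2.39), and decorin, DCN (35.8 and 17.3 per 10000, 1.05), were higher too. MGP, matrix Gla protein, was the lower member, at 21.2 and 55.6 per 10000 (-1.39), and its ratio against the fresh healthy section was 0.12. Of 46 features on the list of matrix proteases and inhibitors 12 were measured. Of these, 5 were at least 2-fold higher and 1 lower, with a median of 0.96. In muscle-rich spots 1 of 11 was higher and 2 lower, with a median of 0.29. The members higher over all spots included the aggrecanase ADAMTS5 (2.58) and the gelatinase MMP2 (5.38 and 1.37 per 10000, 1.97). These were at 1.70 and 0.66 in muscle-rich spots. ADAM2 (1.98) was also counted, but this list was matched by gene name and not by known protease activity. The member lower over all spots was MMP12, treated with the macrophage genes. The basement membrane and dystrophin complex list counted 6 of 22 at least 2-fold higher, near the 26.6% of all genes, and 0 lower, with a median of 0.72. Utrophin, UTRN, the relative of dystrophin, was the highest of it (190 and 99 UMIs, 1.97), while the sarcoglycan SGCA was at -0.54.

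Endothelial genes had a median near that of all genes. Of 10 endothelial genes 2 were at least 2-fold higher and 0 lower, where 26.6% and 3.07% of all genes were. Their median of 0.39 turns negative on the scale of the median gene, and it was -0.005 in muscle-rich spots. The higher ones were CCL21, a chemokine of lymph vessels (1288 and 487 UMIs, 2.44), and the transcription factor PROX1 (52 and 52 UMIs, 1.04). The interval of PROX1, 0.45 to 1.62, includes values under 2-fold. In muscle-rich spots CCL21 was at 0.66 and PROX1 at 1.51, so they did not behave alike. VWF of blood vessels was at 0.04 over all spots. The smooth muscle genes ACTA2 (1.11) and MYH11 (1.17) were 2 of 4 past 2-fold of 8 measured, with 0 lower and a median of 0.83, and they were at -0.12 and -0.15 in muscle-rich spots.

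Complement genes and a part of the macrophage genes were higher, and 1 spot of the stored healthy section held many UMIs of some macrophage genes. Of 17 measured macrophage genes 7 were at least 2-fold higher and 1 lower, with a median of 0.77, and their summed share was 0.222% and 0.109%. In muscle-rich spots the median was 0.13 over the same 17 genes, and -0.14 over the 15 with at least 50 UMIs there. Of these 15, 2 were at least 2-fold higher and 4 lower, where 12% and 4.04% of all genes were. The receptor of macrophage growth factor, CSF1R, was at 1.74 (643 and 396 UMIs), the cathepsin CTSK at 1.47 and the mannose receptor MRC1 at 1.65. In the stored healthy section, a single spot gave 179 of the 255 UMIs of the macrophage elastase MMP12, 334 of 570 of GPNMB, 391 of 1409 of LGALS3 and 69 of 278 of CD68, and 8.25% of its nuclear UMIs came from the macrophage list. Without this spot the log2 ratio of MMP12 was -1.58 in place of -3.32, GPNMB turned from -0.91 to 0.35, LGALS3 went from 0.77 to 1.24, and the macrophage median from 0.77 to 0.99. In muscle-rich spots MMP12 was at -3.34 and GPNMB at -1.55. MMP12 had 12 UMIs at 16 weeks and 0 in the fresh healthy section.

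Of 8 complement genes 6 were at least 2-fold higher and 0 lower, with a median of 1.45, and 0.59 in muscle-rich spots. The subunits of the recognition molecule C1q, C1QA, C1QB and C1QC, were at 1.45, 2.13 and 1.52, and the protease C1R at 2.00. Some genes are on more than 1 list, so the counts of these classes are not separate. The C1q subunits are also on the macrophage list. CSF1R is on the macrophage and cytokine lists, CCL21 on the endothelial and cytokine lists, and CTSK on the macrophage and lysosome lists. Among cytokines, chemokines and their receptors 9 of 15 were at least 2-fold higher and 0 lower (median 1.61), including the chemokines CCL14 (1.82) and CCL2 (1.83) and the decoy receptor IL1R2 (2.04). These 15 were the measured ones of 92 features on the list. The plasma cell gene JCHAIN had 129 and 5 UMIs (5.59, interval 4.47 to 7.37), found in 73 of the 16-week spots. It was the highest of 3 measured B and plasma cell genes, out of 10 features on the list. Of these 3, 2 were at least 2-fold higher and 0 lower, with a median of 1.57. The higher ones, JCHAIN and TXNDC5 (71 and 49 UMIs), reached the minimum of 50 UMIs only with the UMIs of the 16-week section. The count and the median therefore rest in part on that minimum. None of the 7 T and NK cell genes with a feature reached 50 UMIs, and together they gave 4 and 7 UMIs. Interferon-induced and class I presentation genes had 0 of 9 past 2-fold in either direction, and a median of 0.11. Of mast cell and granulocyte genes 2 were measured, KIT (0.79) and S100A9 (0.48), and of erythroid genes 1, ALAS2 (1.13).

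Nerve and synapse genes gave little signal. S100B, a calcium-binding protein of Schwann cells and fat cells, had 627 and 149 UMIs (3.11) and was the 1 measured gene of 9 Schwann cell features. Of 5 measured genes of the neuromuscular junction and the response to denervation, 2 were at least 2-fold higher and 0 lower, with a median of 0.63. These were GADD45A (52 and 23 UMIs, 2.20) and the acetylcholine receptor subunit CHRNE (46 and 31, 1.60). The receptor subunit CHRNA1 was at 0.63 and its anchor RAPSN at -0.05. Excitation and calcium handling genes had 2 of 17 at least 2-fold higher and 0 lower, with a median of -0.01 (0.35 with all UMIs as denominator). They included PLN, a brake on the slow calcium pump (1.05).

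Ribosomal protein, proteasome and chaperone genes had 0 members past 2-fold. Over all genes with at least 50 UMIs, 26.6% were higher and 3.07% lower, with a median of 0.53. The counts over all spots in this paragraph are to be read against these, and those in muscle-rich spots against 12% and 4.04%. The 13 ribosomal protein genes had a median of 0.29 and a summed share of 4.96% and 4.55%. The 29 proteasome genes had a median of -0.14 and the 34 chaperone genes one of 0.16. The proteasome median turns to 0.23 with all UMIs as denominator, and those of ribosome and chaperones turn negative on the scale of the median gene. Translation factors had 3 of 27 at least 2-fold higher and 0 lower (0.42). Genes of protein folding and export in the endoplasmic reticulum had 5 of 13 higher and 0 lower (0.93), among them HSP90B1 (6.60 and 2.94 per 10000, 1.17) and SSR1 (1.38), and in muscle-rich spots 0 of 13 were past 2-fold. Lysosome and autophagy genes had 4 of 17 higher and 0 lower (0.52), near the share and the median of all genes. The cathepsin CTSB was at 1.35, and at 0.57 in muscle-rich spots, where 1 of 17 of these genes was higher and 0 lower. Redox genes had 6 of 17 higher and 0 lower (0.56), where MGST1 was the highest and MGST3 the lowest (-0.98). Of 9 RNA-binding proteins of the nucleus 6 were higher and 0 lower (1.14), and 2 of 9 in muscle-rich spots. Growth and patterning signals had 7 of 21 higher and 0 lower (0.81). In muscle-rich spots 2 of 17 were higher and 3 lower, with a median of 0.11, or 0.37 over all 21. The Notch target HES1 (546 and 371 UMIs) was at 1.59, and unlike its list it stayed as high in muscle-rich spots, at 1.79. Immediate early genes, which also respond to handling, had 4 of 7 higher and 1 lower (1.11), from BTG2 (2.28) to SGK1 (-1.59, 9 and 58 UMIs), and cell cycle genes 1 of 5 higher and 0 lower (0.47).

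**Figure D5:**
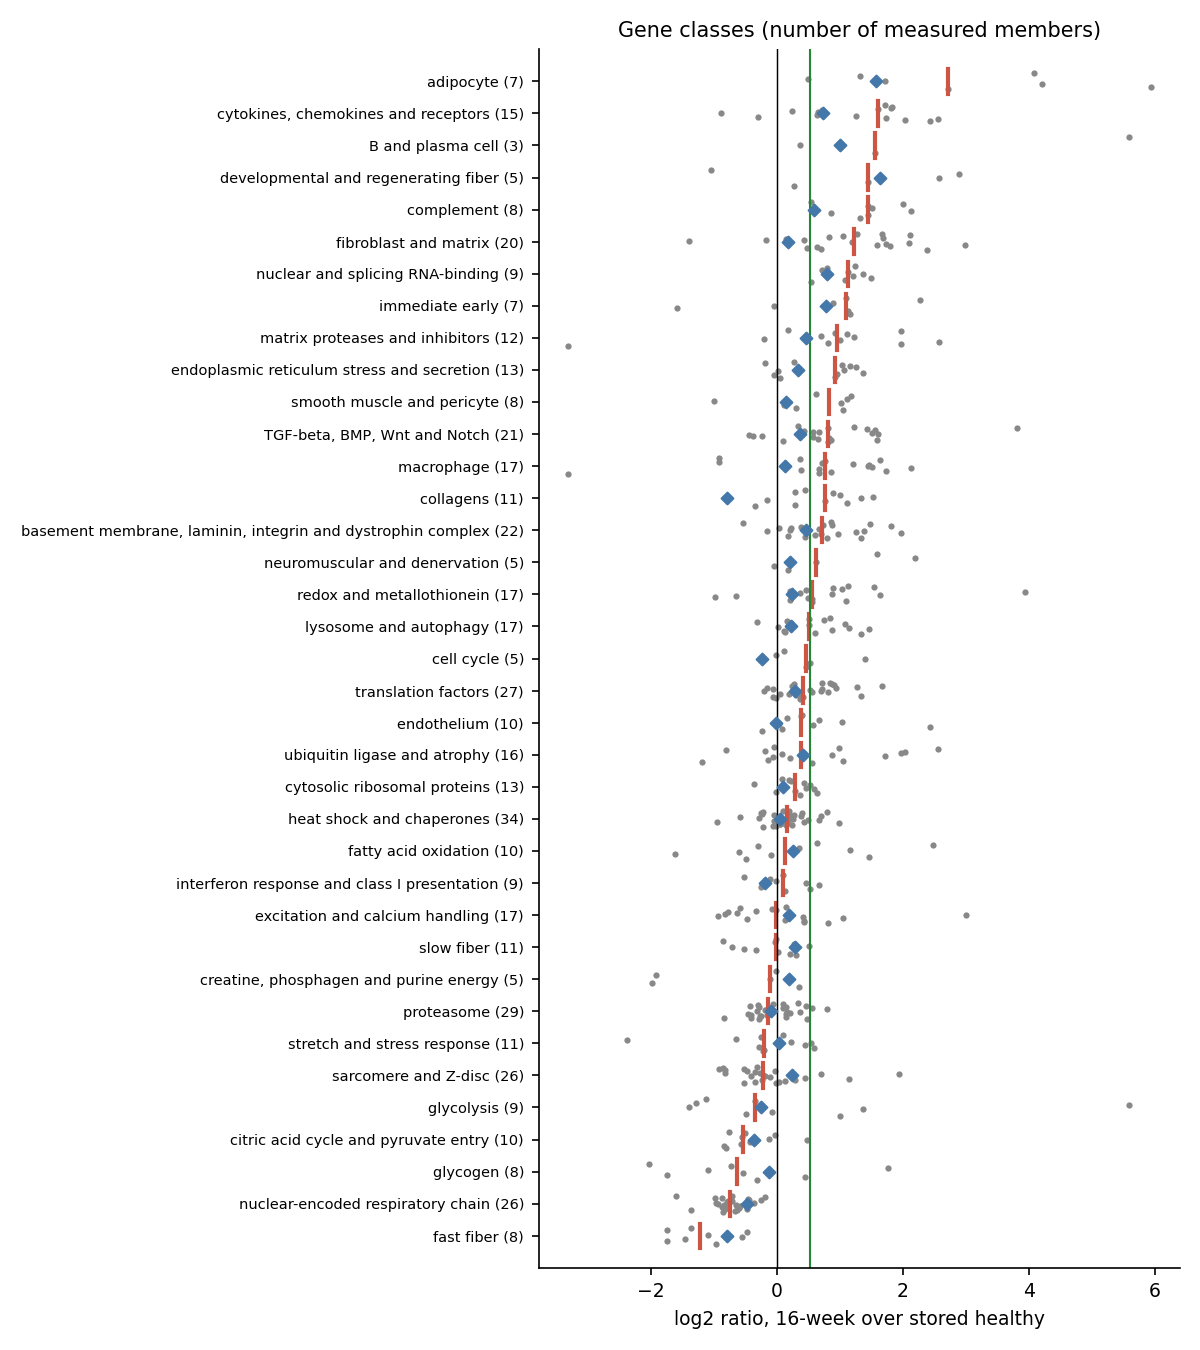
Log2 ratios of the 16-week over the stored healthy section (x axis) for the members of the gene classes with at least 3 measured genes (grey points, number in brackets), ordered by their median (red bars). Blue diamonds are the medians of the same genes in muscle-rich spots and the green line is the median of all genes with at least 50 UMIs, 0.53. Adipocyte genes lie at the top and fast fiber and respiratory chain genes at the bottom, and the collagen diamond lies at -0.79, far from its bar.

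Among the 15 genes with the lowest ratios, some were high in the stored healthy section alone. NDUFAF2, an assembly factor of complex I, had 1 UMI at 16 weeks and 381 in the stored healthy section (log2 ratio -6.95, interval -12.84 to -5.05), but 4 in the 2-week and 7 in the fresh healthy section, so the stored healthy section was the high one. METTL21C, a muscle methyltransferase, was alike, at 0.152 and 1.15 per 10000 against 0.180 in the fresh healthy section. MLF1 (1.44 and 5.63), HACD1 (0.239 and 0.947), an enzyme of long fatty acids, and the amino acid transporter SLC38A4 (0.0999 and 0.328) were lower than in both healthy sections. CA9 had 10 and 207 UMIs (-3.27), and in the RefSeq annotation of another rabbit assembly, mOryCun1.1, it neighbours the abundant tropomyosin gene Tpm2. The log2 ratio of Tpm2 was -0.51. Whether reads of Tpm2 were counted on CA9 was not tested.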

How the data were processed

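Per the labels and the methods of the study, the Visium libraries were processed by the authors with Space Ranger 1.2.0, which aligned reads to OryCun2.0 with genes of Ensembl release 104. The deposited values are UMI counts of genes in spots under tissue, without normalization. UMIs merge duplicate reads, so depth in reads is not given by the counts. Reads outside annotated genes are not counted, so a gene with an incomplete 3′ end can lose them, and 9803 of 21139 features have no gene name and were left out of the classes. They held 40.4% (16-week) and 36.0% (stored healthy) of the nuclear UMIs.

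UMIs were summed per section over all spots, with no filter on spots, and 37 mitochondrial features were kept out of the main denominator. Ratios had 0.5 UMI added and exact conditional 95% intervals, levels exact Poisson and shares exact binomial (Clopper-Pearson) intervals. The intervals for shares of spots count spots as independent, which neighbouring spots of 1 section need not be. Calls needed 200 UMIs over both sections and 2-fold, and class members 50 UMIs. Thinning to 500 nuclear UMIs left out 226 of the 16-week and 91 of the stored healthy spots. Doublets were not called, as a spot can hold several cells. The sections shared 1454 barcodes, which mark slide positions and not cells.

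Genes named were the 15 highest and 15 lowest of those with a symbol and 200 UMIs, and per class the 2 with most UMIs and the 2 highest and 2 lowest with at least 100 UMIs. Any other gene named was chosen after their values were seen. The comparison, the 42 gene lists and the rules were chosen with earlier results of these data known. Just inside the 2-fold limit were MEF2D (log2 ratio 1.00) and RABGGTA (-1.02), and just outside were ADAM15 (0.999) and LMOD1 (-0.99). Samples were grouped by their titles. The calculations used scipy 1.17.1, numpy 2.4.6 and pandas 2.3.3 in Python 3.11.15, with plots by matplotlib 3.10.9. The calculations were tested on simulated data. The alternatives are listed with their effect at the end. Some items are not reported here.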

Additional observations from a re-analysis of the deposited data

How the results depend on the processing

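With 1 section per side, no replicate could be left out, and the intervals cover counting error of UMIs or spots only, not differences between animals or sections. No paired analysis was possible because each side has a single section. The number of genes at least 2-fold higher (524) moved to 949 with all UMIs as denominator, 229 scaled to the median gene, 1204 and 127 with a minimum of 50 and 1000 UMIs, 82 with a 4-fold limit, 318 with the whole interval past 2-fold and 158 in muscle-rich spots. The number at least 2-fold lower (80) moved to 43, 208, 139, 45 and 15 under the first 5 of these, and to 203 against the fresh healthy section. Both stayed within 1.5 times under the 3 alternatives of leaving out the 10 most counted genes, of spots with at least 500 UMIs and of the mean share per spot. The difference in the mitochondrial share (-14.6 percentage points) was -18.4 as the median per spot, -14.1 over the 13 named genes, -8.23 in muscle-rich spots and -14.7 against the fresh healthy section. Against the fresh healthy section the log2 ratio turned to 4.84 for MMP12, 0.12 for MGP and 1.52 for MYH8. MMP12 had 0 UMIs in the fresh healthy section, so its 4.84 depends on the 0.5 UMI added and is no bound; against a floor of 3 UMIs in that section it was at least 4.59-fold higher in the 16-week section. In muscle-rich spots it turned to -0.12 for ACTA2, -0.15 for MYH11, -0.15 for ACLY, -0.30 for COL12A1 and -1.58 for COL11A1. No other of the 197 named genes that differed by at least 2-fold changed sign under these alternatives. The cause of these changes was not tested. Leaving out each section's highest spot per gene and a minimum mean level in place of a UMI minimum (622 higher, 77 lower) were added after seeing the data.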

Other observations

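Some features without a gene name stood far apart between the sections. ENSOCUG00000027394 had 10589 UMIs at 16 weeks and 19 in the stored healthy section, a log2 ratio of 10.12 (interval 9.52 to 10.89), while the fresh healthy section had 251 and the 2-week section 806. ENSOCUG00000025374 had 1235 and 2 UMIs (9.99, interval 8.45 to 13.35). Both were unevenly placed, since the 10% of 16-week spots with most UMIs held 91.0% and 97.1% of them. In muscle-rich spots their log2 ratios were 6.94 and 5.85. On the lower side, ENSOCUG00000027416 had 544 and 9040 UMIs (-3.02) and ENSOCUG00000020239 15 and 276 (-3.12), and the former stood at 48.7 per 10000 in the fresh healthy section against 14.2 in the stored one. The annotation table used here pairs none of these identifiers with a name.

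Some named features with many UMIs lay next to a muscle or fat gene with few or none. STARD3, a cholesterol transfer protein, stood at 80.3 per 10000 at 16 weeks and 119 in the stored healthy section, and in mOryCun1.1 it neighbours TCAP, the Z-disc protein telethonin, which had 0 UMIs in both. UVRAG, an autophagy gene, had 2106 and 480 UMIs (log2 ratio 3.17) and neighbours DGAT2, the enzyme that completes triglycerides, for which the table has no feature of that name. ADCY10 (1648 and 8007 UMIs) neighbours MPC2, a mitochondrial pyruvate carrier, which also has no feature of that name. LRP3 neighbours SLC7A10, an amino acid transporter, which had 20 and 0 UMIs. Whether UMIs of the neighbours were counted on these features was not tested. These genes were picked after their values were seen.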
